A study of Mus musculus with 6 samples.

Results

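Ankrd37, Ndrg1, Bhlhe40 and Cited2 are 4 genes long used as readouts of the hypoxia-inducible factors (HIF). They were taken by name from a deposited table of 7340 genes, and all 4 are listed there and passed the filter on low counts. RNA was sequenced from 6 mouse kidney samples labelled WT. In 3 of them ischaemia-reperfusion injury (IRI) was combined with MK-8617, a compound that blocks the HIF prolyl hydroxylases. The other 3 had IRI alone. The comparison asks what the inhibitor adds to the injury: both groups carry IRI, and no uninjured kidney was analysed here. The dose, route and timing of MK-8617 and the age of the animals are not given in the sources used here. A 1d tag stands in the column names, but no label states how long after injury tissue was taken. For MK-8617 replicates 2 and 3 the titles (MK8617) were followed, since their treatment fields read MK8618 and MK8619.

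In well oxygenated cells the prolyl hydroxylases mark the HIF alpha subunits for destruction by the VHL ubiquitin ligase. When oxygen is short, or when the enzymes are inhibited, the alpha subunits persist, pair with ARNT and bind hypoxia response elements with the core letters ACGTG or GCGTG. Ndrg1 encodes a stress-responsive cytoplasmic protein linked to differentiation and vesicle traffic. Ankrd37 encodes a small ankyrin-repeat protein. Bhlhe40 (also called DEC1) encodes a basic helix-loop-helix repressor that binds E-boxes and acts in the circadian clock. Cited2 encodes a transcriptional cofactor that competes with HIF-1α for the CH1 domain of CBP and p300, so that it is both a HIF target and a brake on HIF.

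Promoter sequences were at hand for 2 of the 4 members. They are shown because each holds the core letters of a hypoxia response element. Each runs from 250 bases before to 50 bases after the RefSeq start site (GRCm38.p6), and capitals mark the cores ACGTG and GCGTG on either strand. The E-box CACGTG was also searched, and it holds ACGTG on both strands. The Ankrd37 window is chr8:45999801-46000100 on the minus strand and the Cited2 window chr10:17722978-17723277 on the plus strand.
Ankrd37: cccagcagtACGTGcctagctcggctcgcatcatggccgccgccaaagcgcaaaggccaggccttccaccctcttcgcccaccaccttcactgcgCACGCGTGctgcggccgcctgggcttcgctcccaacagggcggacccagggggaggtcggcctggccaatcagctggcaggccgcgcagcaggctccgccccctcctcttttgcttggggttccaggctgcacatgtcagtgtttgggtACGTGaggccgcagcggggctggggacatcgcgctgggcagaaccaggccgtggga
Cited2: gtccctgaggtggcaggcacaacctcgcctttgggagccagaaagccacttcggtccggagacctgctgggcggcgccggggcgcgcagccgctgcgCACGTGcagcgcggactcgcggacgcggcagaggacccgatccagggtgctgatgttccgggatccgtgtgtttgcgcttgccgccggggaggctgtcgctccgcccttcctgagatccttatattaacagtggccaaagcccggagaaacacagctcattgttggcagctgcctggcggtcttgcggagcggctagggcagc
Ankrd37 held ACGTG at -241 and at -6 from its start site, and GCGTG once on each strand at -155 and -152, where the 2 copies overlap. Cited2 held 1 CACGTG at -153 and no GCGTG. Of 32851 promoter windows of the same length 19.6% held ACGTG on either strand, 32.4% held GCGTG and 7.15% held CACGTG. These are matches of letters and not measured binding.

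All 4 members were higher with MK-8617. Each was past an adjusted p of 0.05 in limma's test, while among the 6961 tested genes 35.7% were called higher, 38.7% lower and 74.3% in either direction. In all 4 the groups did not overlap, as in 92.5% of the tested genes, and 44.8% of the tested genes were separated in the upward direction. The table lists genes whose p in the authors' comparison was under 0.05, so these shares describe the table and not all transcripts. The exact two-sided permutation test on log2 levels gave p = 0.1 for each member, the smallest value that 3 against 3 samples allow. Levels below are in normalised reads, the authors' counts divided by 1 size factor per library, or in FPKM, which also divides by gene length. Fold changes are on the log2(normalised reads + 1) scale. RNA came from whole tissue, so more RNA per cell and more cells of an expressing type cannot be told apart.

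Ndrg1 (ENSMUSG00000005125, GRCm38 chromosome 15, 66929318 to 66969640, minus strand) was the most abundant member. It had 62310.0, 46977 and 53795 normalised reads in MK-8617 replicates 1, 2 and 3, against 14583, 10398 and 12453 in IRI replicates 1, 2 and 3. Replicate 1 was the highest and replicate 2 the lowest in both groups, and the lowest MK-8617 library was 3.22 times the highest IRI library. MK-8617 libraries averaged 54361 ± 7682 and IRI libraries 12478 ± 2093 (SD, n = 3 each). The log2 fold change was 2.13 ± 0.15 (SE) with a limma adjusted p of 7.3e-05, a fold of 4.37 with a 95% interval of 3.43 to 5.57. Per length the level was 525, 394 and 456 FPKM with MK-8617, against 125, 88.7 and 106 FPKM with IRI alone. Ndrg1 reads made up 0.302% of all counted reads on average with MK-8617 and 0.0702% with IRI alone. Its mean level in FPKM was above that of 98.7% of the listed genes. The spread between replicates was 14.1% of the mean with MK-8617 and 16.8% with IRI alone, far above the 0.439% and 0.868% that counting error alone would give.

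Ankrd37 (ENSMUSG00000050914, GRCm38 chromosome 8, 45996902 to 46005707, minus strand) was the least abundant member and had the largest fold change of the 4. It had 278, 218 and 238 normalised reads in MK-8617 replicates 1, 2 and 3, against 15.1, 22.8 and 8.63 in IRI replicates 1, 2 and 3. The IRI values rest on 16, 25 and 9 reads, with exact Poisson 95% intervals of 9.15 to 26.0, 16.2 to 36.9 and 4.12 to 17.1 reads, which cover counting error only. IRI replicate 3 was the lowest library, and its interval overlapped those of the other IRI libraries. Even so, the lowest MK-8617 library was 9.56 times the highest IRI library. MK-8617 libraries averaged 245 ± 30.5 and IRI libraries 15.5 ± 7.08 (SD, n = 3 each). The log2 fold change was 3.98 ± 0.34 (SE) with a limma adjusted p of 0.000149, a fold of 15.8 with a 95% interval of 9.23 to 27.1. It was the eighth largest among the 2482 genes called higher. In FPKM the levels were 10.02, 7.83 and 8.65 with MK-8617, against 0.556, 0.833 and 0.314 with IRI alone. With IRI alone the spread between replicates was 45.6% of the mean, where counting error alone would give 24.5%. With MK-8617 the spread was 12.5% and counting error 6.55%. Of the 1539 exonic bases of Ankrd37, 349 (22.7%) overlap exons of Lrp2bp on the other strand, and the kit is not described in the labels as strand-specific. Reads from those bases cannot be assigned to either gene for sure. Another 57 (3.70%) overlap exons of Ufsp2, also on the other strand. Neither gene is in the table.

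Bhlhe40 (ENSMUSG00000030103, GRCm38 chromosome 6, 108660629 to 108666925, plus strand) had 7331, 7161 and 7736 normalised reads in MK-8617 replicates 1, 2 and 3, against 2466, 2962 and 2405 in IRI replicates 1, 2 and 3. The MK-8617 libraries lay close together, and IRI replicate 2 was the highest of the IRI libraries. MK-8617 libraries averaged 7409 ± 295 and IRI libraries 2611 ± 305 (SD, n = 3 each). The log2 fold change was 1.51 ± 0.11 (SE) with a limma adjusted p of 7.3e-05, a fold of 2.85 with a 95% interval of 2.39 to 3.39. Per length the level was 86.5, 84.3 and 91.8 FPKM with MK-8617, against 29.6, 35.4 and 28.6 FPKM with IRI alone. The spread between replicates was 3.98% of the mean with MK-8617 and 11.7% with IRI alone, against 1.19% and 1.89% from counting error.

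Cited2 (ENSMUSG00000039910, GRCm38 chromosome 10, 17723218 to 17725674, plus strand), the brake on HIF activity, had the smallest fold change of the 4. It had 1844, 1670.3 and 1901 normalised reads in MK-8617 replicates 1, 2 and 3, against 826, 741 and 830.1 in IRI replicates 1, 2 and 3. Replicate 2 was the lowest library of both groups, and the lowest MK-8617 library was 2.01 times the highest IRI library. MK-8617 libraries averaged 1805 ± 120.3 and IRI libraries 799 ± 50.1 (SD, n = 3 each). The log2 fold change was 1.17 ± 0.10 (SE) with a limma adjusted p of 0.00014, a fold of 2.26 with a 95% interval of 1.93 to 2.64. Per length the level was 41.7, 37.6 and 43.2 FPKM with MK-8617, against 19.0, 17.0 and 18.9 FPKM with IRI alone. Cited2 has 1 exonic block and shares no exonic base with another annotated gene. Ndrg1 and Bhlhe40 overlap exons of antisense or divergent noncoding genes, each over at most 6.35% of their exonic bases.

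**Figure D1:**
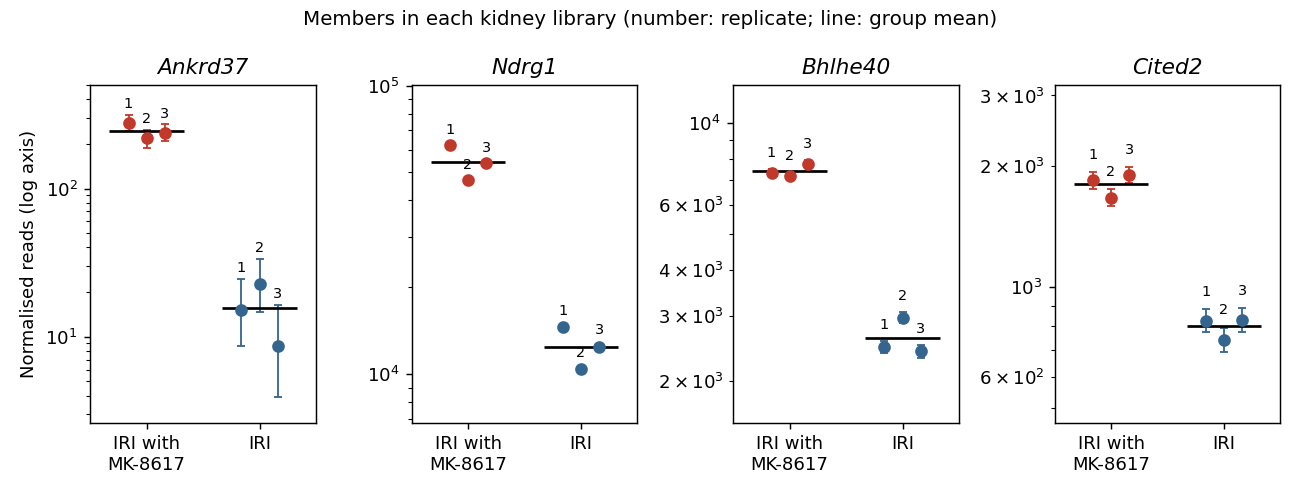
Normalised reads (log axis, each gene on its own scale) of the 4 members in each library, with IRI and MK-8617 on the left and IRI alone on the right of each panel. Points are libraries numbered by replicate, bars are exact Poisson 95% intervals of the reads, and lines are group means. No MK-8617 library overlaps an IRI library in any panel, and the bars are wide only for Ankrd37 with IRI alone (9 to 25 reads).

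The authors' deposited table gives log2 fold changes of 3.97 for Ankrd37, 2.12 for Ndrg1, 1.5 for Bhlhe40 and 1.18 for Cited2. The adjusted p in the authors' deposited table is 3.27e-32 for Ankrd37, 2.87e-37 for Ndrg1, 2.41e-29 for Bhlhe40 and 1.3e-17 for Cited2. In the authors' deposited table Ndrg1 ranks 38 and Cited2 ranks 191 by p among the listed genes.

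**Figure D2:**
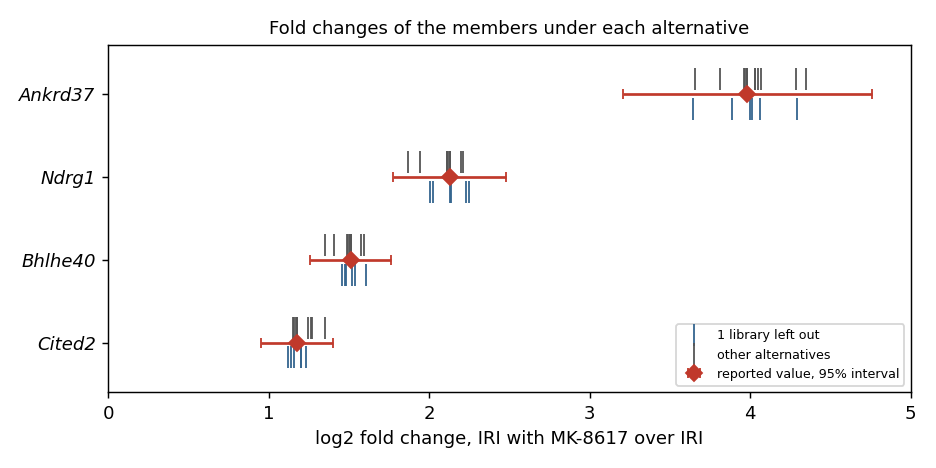
log2 fold change of each member, IRI with MK-8617 over IRI. Red diamonds and bars are the reported values with their 95% intervals, blue ticks leave out 1 library each, and grey ticks are the other alternatives (normalisation, filter, pseudocount, test, length trend). All ticks lie within the 95% intervals, from 3.64 to 4.35 for Ankrd37 and from 1.12 to 1.35 for Cited2.

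The order of levels per length was the same in both groups, Ndrg1 above Bhlhe40, Bhlhe40 above Cited2 and Cited2 above Ankrd37. No neighbours in that order overlapped in FPKM in either group. The steps between them were unequal between the groups. Ndrg1 was at 5.23 times the mean FPKM of Bhlhe40 with MK-8617 and at 3.41 times with IRI alone. Bhlhe40 was at 2.14 times Cited2 with MK-8617 and at 1.71 times with IRI alone. Cited2 was at 4.62 times Ankrd37 with MK-8617 and at 32.2 times with IRI alone.

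Fold changes were compared between members within each library, in 6 pairs, by an exact two-sided permutation test on the difference of log2 levels. Ankrd37 exceeded Ndrg1 in log2 fold change by 1.85 ± 0.46, Bhlhe40 by 2.47 ± 0.31 and Cited2 by 2.81 ± 0.43 (SE). Ndrg1 exceeded Bhlhe40 by 0.62 ± 0.25 and Cited2 by 0.95 ± 0.13. In these 5 pairs the within-library differences did not overlap between the groups, and each exact p was 0.1, the smallest possible, or 0.12 adjusted over the 6 pairs. Bhlhe40 exceeded Cited2 by 0.34 ± 0.15, and here the groups overlapped (exact p = 0.2, adjusted p = 0.2). With the gene length trend removed, an alternative added to the pairs after seeing the data, Bhlhe40 exceeded Cited2 by 0.079 and Ndrg1 exceeded Cited2 by 0.60. Without IRI replicate 2 Ndrg1 exceeded Bhlhe40 by 0.40. The ratio of Bhlhe40 to Cited2 in FPKM was 2.08, 2.24 and 2.12 in MK-8617 replicates 1, 2 and 3, against 1.56, 2.09 and 1.51 in IRI replicates 1, 2 and 3. IRI replicate 2 lay within the range of the MK-8617 libraries. The ratio of Ndrg1 to Ankrd37 in FPKM was 52.4, 50.3 and 52.7 in MK-8617 replicates 1, 2 and 3, against 225, 107 and 337 in IRI replicates 1, 2 and 3.

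Within the MK-8617 group, replicate 2 was the lowest library for all 4 members. Within the IRI group the members split, with replicate 2 the highest for Ankrd37 and Bhlhe40 and the lowest for Ndrg1 and Cited2. The prolyl hydroxylase gene Egln3, itself a HIF target, had another pattern within the MK-8617 group, with 633, 1073 and 988 normalised reads in replicates 1, 2 and 3. Its IRI libraries had 218, 188 and 154 normalised reads. So replicate 2, the lowest MK-8617 library for the 4 members, was the highest for Egln3. Other HIF targets split in the same way. Replicate 2 was also the highest MK-8617 library for Car9, Bnip3 and Slc16a3, and the lowest for Pfkl and Plod2.

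The genes with the most alike profile were sought among 5717 tested genes with a mean of at least 50 normalised reads. The members and genes with predicted symbols (Gm with a number, or ending in Rik) were left out. Likeness was the root-mean-square difference over the 6 libraries between log2 levels, each centred on its own mean. The nearest to Ankrd37 were Car9, a carbonic anhydrase, at 0.41, AW822252 at 0.44, and Adm2, an adrenomedullin-family peptide, at 0.46. Ndrg1 was nearest to Dpys, an enzyme of pyrimidine breakdown, at 0.12, Rpl10-ps3 at 0.13, and Inhbb, an inhibin and activin subunit, at 0.16. Rpl10-ps3 is named as a pseudogene, and reads shared with its parent gene make its value uncertain. The nearest to Bhlhe40 were the collagen lysyl hydroxylase gene Plod2 at 0.05, the mitophagy receptor gene Bnip3l at 0.06 and the homeobox repressor gene Tgif1 at 0.12. Plod2 averaged 2288 ± 169 normalised reads under MK-8617, against 790.4 ± 74.1 under IRI alone (SD, n = 3 each). Cited2 was nearest to the zinc finger gene Rlf at 0.03, the lipid droplet gene Fitm2 at 0.05 and the phosphate transporter gene Slc20a1 at 0.07. Rlf averaged 779 ± 59.3 normalised reads under MK-8617, against 350 ± 29.4 under IRI alone (SD, n = 3 each). Among the members themselves, Bhlhe40 and Cited2 were the closest pair at 0.23 and Ankrd37 and Cited2 the farthest at 1.47. Profiles over 6 libraries in 2 groups are set mostly by the group difference, and the distances are descriptions.

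**Figure D3:**
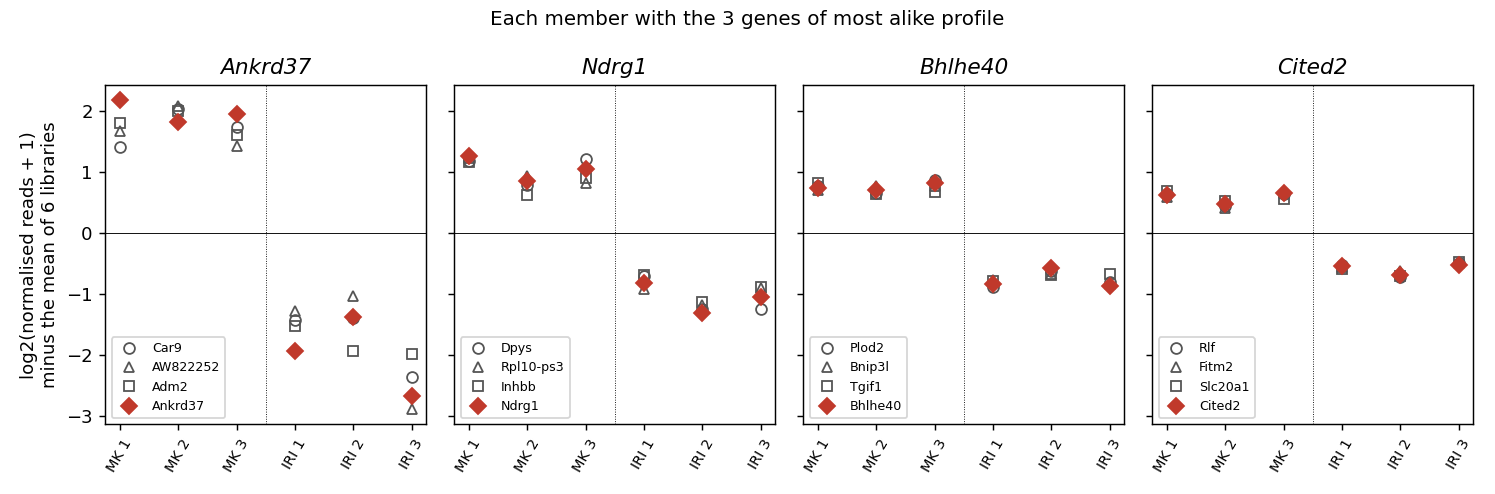
Level of each member (red diamonds) and of its 3 nearest genes (grey outlines) in the 6 libraries, as log2(normalised reads + 1) minus the mean over the libraries, with MK-8617 libraries left of the dotted line and IRI libraries right of it. The genes near Bhlhe40 and Cited2 lie almost on the member (0.03 to 0.12), and those near Ankrd37 scatter most (0.41 to 0.46).

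Other HIF target genes were also higher. Of a list of 62 such genes 47 were tested, and 38 were higher, 1 was lower and 8 were not called, against 35.7% called higher among all tested genes. The median log2 fold change of the list was 1.04, against -0.31 over all tested genes. Among the genes of smallest adjusted p were Bnip3, the mitophagy receptor gene (2.96 ± 0.14), the phosphofructokinase gene Pfkl (1.93 ± 0.10), Bnip3l (1.51 ± 0.09) and the lactate exporter gene Slc16a3 (2.69 ± 0.19), all log2 fold change ± SE. Plod2, described above, had the same adjusted p as Slc16a3. Vegfa, which encodes an endothelial growth factor, averaged 6794 ± 399 normalised reads under MK-8617, against 3113 ± 539 under IRI alone (SD, n = 3 each), close to Cited2 in log2 fold change (1.14 ± 0.14). The one that was lower was the carbonic anhydrase gene Car12 (-1.13 ± 0.19), named after its values were seen. Set among these 47 genes, Ankrd37 had the largest log2 fold change, with Car9 next at 3.46. Ndrg1 was exceeded by 4 of them (Car9, Bnip3, Slc16a3 and Egln3), Bhlhe40 by 7 and Cited2 by 15. The 7 and the 15 include Gapdh, which was not called (2.10 ± 0.73, limma adjusted p = 0.0745). Gapdh had 1185, 8567 and 1215 normalised reads in MK-8617 replicates 1, 2 and 3.

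**Figure D4:**
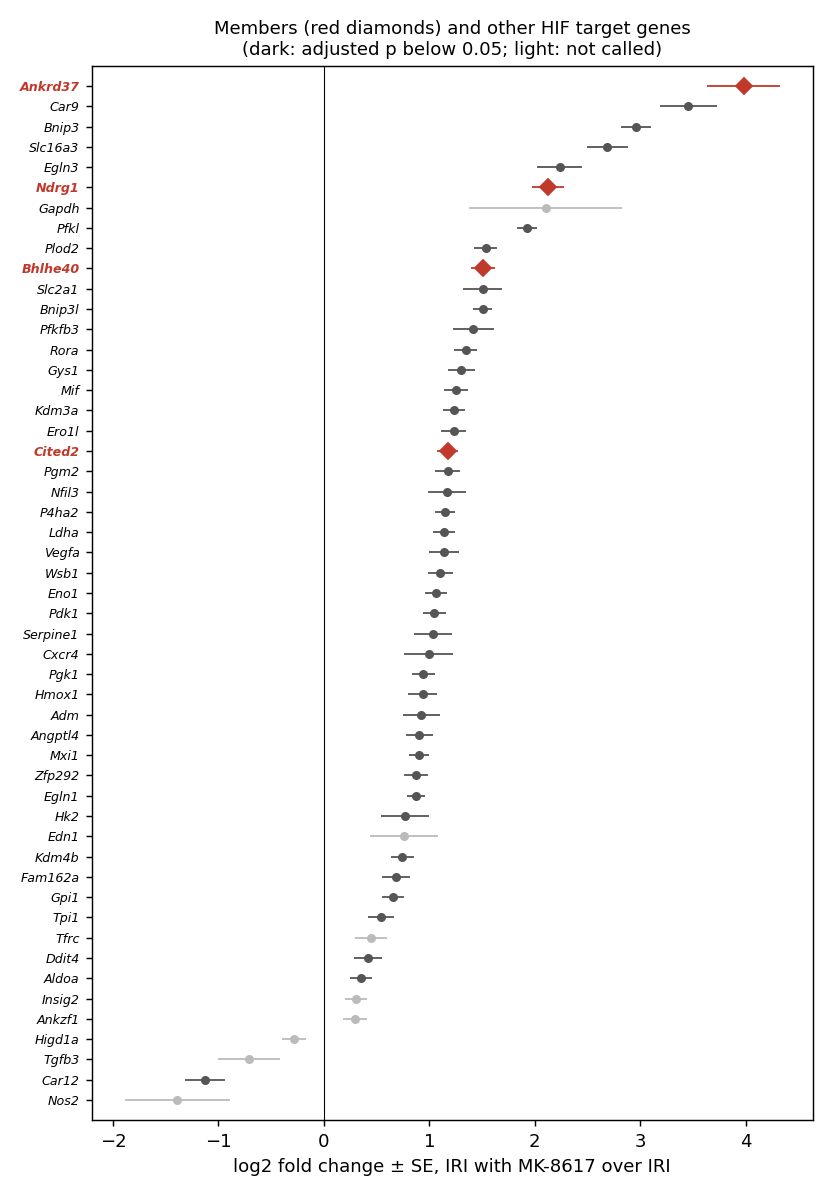
log2 fold change ± SE, IRI with MK-8617 over IRI, of the 4 members (red diamonds) and 47 other HIF target genes (circles, dark where the adjusted p is below 0.05). Ankrd37 is at the top at 3.98, and Cited2 at 1.17 lies near the list median of 1.04.

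Of 17 genes of the HIF machinery 13 were tested, with 9 higher, 3 lower and 1 not called, where 35.7% of all tested genes were higher and 38.7% lower. The median log2 fold change of the list was 0.49. With the trend on gene length removed the number higher was 5. Egln3 rose by 2.24 ± 0.21 and Egln1, the main oxygen-sensing hydroxylase gene, by 0.87 ± 0.09 (log2 fold change ± SE). Both also stand in the HIF target list and are counted as higher there too. Hif1a and Epas1, the alpha subunit genes, rose by 0.74 ± 0.13 and 0.50 ± 0.14. Epas1 did not pass when the length trend (0.30) or both length and GC trends (0.40) were taken out. Nor did it pass when IRI replicate 2 (0.42) or either of MK-8617 replicates 1 (0.47) and 3 (0.41) was left out. The 3 genes that fell were Rbx1 (-0.70 ± 0.10), Elob (-0.77 ± 0.12) and Eloc (-0.62 ± 0.12), which encode subunits of cullin ubiquitin ligases, the VHL ligase among them. Elob and Eloc were named after their values were seen.

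Genes that encode binding partners of CITED2 were tested for 6 of 10 list members, with 5 higher and 1 lower and a median log2 fold change of 0.79. Over all tested genes 74.3% were called, 35.7% as higher and 38.7% as lower. Crebbp and Ep300, which encode the coactivators CBP and p300 and also stand in the machinery list, rose by 0.80 ± 0.12 and 0.66 ± 0.10. Ep300 was not called with the length trend removed (0.25). Crebbp averaged 1038 ± 57.4 normalised reads in MK-8617 libraries, against 599 ± 74.4 in IRI libraries (SD, n = 3 each). Smad3, a TGF-beta signal transducer gene, rose by 0.79 ± 0.11 and Ppara, a nuclear receptor gene of fatty acid oxidation, by 1.19 ± 0.18. The one that was lower was Tfap2b (-0.35 ± 0.10), named after its values were seen. It did not pass with TMM factors (-0.29) or DESeq2 (-0.27), nor when replicate 1 (-0.31) or 3 (-0.34) of IRI, or replicate 1 or 3 of MK-8617 (-0.33 each), was left out.

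Clock genes, the setting in which BHLHE40 acts as a repressor, were tested for 8 of 18 list members, with 6 higher, 0 lower and 2 not called, beside 35.7% higher and 38.7% lower among all tested genes. Their median log2 fold change was 0.90. The nuclear receptor gene Rora rose by 1.35 ± 0.11 and the repressor gene Nfil3 by 1.17 ± 0.18, and both also stand in the HIF target list. Npas2, a paralogue of Clock, rose by 1.35 ± 0.29. Nr1d1, a repressor of the clock's positive arm, rose by 0.63 ± 0.16. That call was lost without IRI replicate 2 (0.54) or without any 1 MK-8617 replicate (0.58 to 0.68). The time of day of sampling is not given in the sources used here. Bhlhe41, the paralogue of Bhlhe40, is not a gene of the table.

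Of 9 genes for NDRG1 kinases and transcriptional regulators 5 were tested, with 2 higher and 3 not called, and a median log2 fold change of 0.71. With 35.7% of all tested genes called higher, that count is near the background. Egr1, an immediate early gene, rose by 1.47 ± 0.19 and Myc, a repressor of NDRG1 in human cells, by 1.36 ± 0.12. Sgk1, a kinase gene for NDRG1, was at 0.71 ± 0.28 (limma adjusted p = 0.0926) and Max, the gene of the MYC partner, at 0.38 ± 0.13 (limma adjusted p = 0.0578). Sgk1 passed with DESeq2 (0.75) and without IRI replicate 3 (0.92). Max passed with TMM factors (0.45), with DESeq2 (0.46) and without IRI replicate 3 (0.44). Of 6 paralogues of the members 2 were tested, 1 higher and 1 not called, with a median log2 fold change of -0.11. Ndrg2 averaged 1571 ± 107 normalised reads under MK-8617, against 930 ± 317 under IRI alone (SD, n = 3 each), a log2 fold change of 0.81 ± 0.20 that did not pass when replicate 1 of either group (0.75 for MK-8617, 0.73 for IRI) or MK-8617 replicate 3 (0.81) was left out. Ndrg4 was at -1.03 ± 0.42 (limma adjusted p = 0.106).

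Counted reads came to 16835541 to 17577794 per library with MK-8617 and 18620621 to 19508497 with IRI alone. Kidney origin was visible in Umod, the uromodulin gene of the thick ascending limb, at 42948 ± 11592 normalised reads in MK-8617 libraries and 31300 ± 8346 in IRI libraries (SD, n = 3 each). Among marker lists of other cell types, 7 of 9 tested macrophage genes and 4 of 5 tested fibroblast genes were lower with MK-8617, and 1 of each was higher. Beside all these marker counts stand 35.7% called higher and 38.7% called lower among all tested genes. The proximal tubule, thick ascending limb and endothelial counts given below are near those shares. The summed macrophage level was 3401 to 4019 normalised reads with MK-8617 and 3419 to 6028 with IRI alone, and without Cd14, the gene that was higher, the other 8 summed to 1106 to 1454 with MK-8617 and 2689 to 5276 with IRI alone. The summed fibroblast level was 5755 to 7086 with MK-8617 and 17766 to 32073 with IRI alone. The 4 fibroblast genes that were lower were Col1a1, Col1a2, Col3a1 and Acta2. The 1 that was higher was Dcn (0.76 ± 0.18, log2 fold change ± SE), and Pdgfra and Pdgfrb are not in the table. Neutrophil genes had 1 higher and 2 lower of 3 tested (summed 210.0 to 518 with MK-8617 and 536 to 831 with IRI alone). Of the proximal tubule genes 2 of 5 tested were higher and 1, Gatm, was lower (-1.23 ± 0.22, log2 fold change ± SE). Their summed level was 45890.5 to 50782 with MK-8617 and 9915 to 30235 with IRI alone, where IRI replicate 3 was the lowest. Most of this sum came from Slc27a2, which was not called (1.35 ± 0.44, limma adjusted p = 0.0532). Slc27a2 averaged 33703 ± 1353 under MK-8617, against 15463 ± 8612 under IRI alone (SD, n = 3 each). Its lowest library was IRI replicate 3 too, at 5545. Thick ascending limb genes had 1 higher and 2 lower of 4 tested (33218 to 53436 with MK-8617 and 25167 to 42767 with IRI alone). Umod, which was not called, made up most of that sum, and the 2 that were lower were Slc12a1 and Ppp1r1a. Collecting duct genes had 2 lower of 3 tested (1161 to 1551 with MK-8617 and 2432 to 2835 with IRI alone). Those tested were Atp6v1g3, Slc4a1 and Slc26a4, of which Slc26a4 was not called. Aqp2, Aqp3 and Scnn1g of that list are not in the table. Avpr2, which the filter removed, had 0 normalised reads in each MK-8617 library and 2.84 to 4.79 in the IRI libraries. Podocyte genes were higher in 2 of 2 tested (1085 to 1177 with MK-8617 and 661 to 788 with IRI alone) and endothelial genes in 1 of 2 (3931 to 5249 with MK-8617 and 2672 to 3408 with IRI alone). The endothelial gene that was higher was Flt1 (0.98 ± 0.17, log2 fold change ± SE). Emcn was not called (-0.33 ± 0.12), though each MK-8617 library lay below every IRI library for it. No gene of the T cell and B cell list is in the table. The part of cell composition in the members' values was not tested. Without IRI replicate 3 the log2 fold changes were 3.64 for Ankrd37, 2.13 for Ndrg1, 1.45 for Bhlhe40 and 1.2 for Cited2.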

How the data were processed

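Groups follow the sample titles. The labels do not tell whether replicates are separate animals, so a p-value may reflect technical spread only. The submitters' processing notes list CASAVA 1.8, DESeq2 1.20.0, fastp, featureCounts 1.5.0-p3 and HISAT2 2.0.5. They name the human build GRCh38, yet the identifiers are mouse, and 7338 of 7340 matched GENCODE M21 (GRCm38), which gave the coordinates. Normalised reads are the deposited signal columns, in which the authors scaled each library's counts by a size factor. Undoing that scaling gave whole reads for 100% of values (tolerance 0.001 reads), equal to the raw count deposited for IRI replicate 3 in 7340 of 7340 genes. The authors' deposited FPKM were used for levels between genes and for library totals. The authors' log2 fold changes and p-values are deposited too. Their adjusted p-values imply 18811 tested genes. A further 13 unnamed columns stayed unused.

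In R 4.3.3, limma 3.58.1 with trend and robust options tested log2(normalised reads + 1) over 6961 genes that passed filterByExpr of edgeR 4.0.16 on the recovered reads (379 removed). Benjamini-Hochberg adjustment ran over 18811 genes, and calls needed an adjusted p under 0.05. The fit was tested on simulated data. Alternatives used other pseudocounts, filters, scalings, length or GC trends, and edgeR, DESeq2 1.42.0 and limma-voom on the recovered reads. The members and lists were chosen with earlier results of these data known. Genes named are the members, 5 HIF genes, up to 4 genes of smallest adjusted p per list and 3 nearest profiles per member. Car12, Elob, Eloc, Tfap2b and Gapdh were named after their values were seen. So were the marker genes Avpr2, Cd14, Umod, Flt1, Emcn, Slc27a2, Gatm, Slc12a1, Ppp1r1a, Atp6v1g3, Slc4a1, Slc26a4, Dcn, Col1a1, Col1a2, Col3a1 and Acta2.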

Additional observations from a re-analysis of the deposited data

How the results depend on the processing

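The direction and the call of Ankrd37, Ndrg1, Bhlhe40 and Cited2 were the same under all 20 alternatives run on them. Their log2 fold changes ranged from 3.64 to 4.35, from 1.87 to 2.25, from 1.35 to 1.6 and from 1.12 to 1.35, and the largest adjusted p was 0.003, for Ankrd37 without MK-8617 replicate 3. Leaving out 1 library at a time gave 3.64 to 4.29 for Ankrd37, 2.00 to 2.25 for Ndrg1, 1.45 to 1.6 for Bhlhe40 and 1.12 to 1.23 for Cited2. The number of genes called was 5173, and 3464 to 6767 under the alternatives. The number of other HIF targets higher was 38, and 34 to 43 under them. The number of HIF machinery genes higher was 9, and 5 with the gene length trend removed. That setting moved the median log2 fold change of all genes by 0.19, and the setting with length and GC content, added after seeing the data, moved it by 0.17. The differences between members kept their sign in all 11 alternatives run on them, of which 2, the removal of trends, were added after seeing the data. Taking out the trend on length gave 2.94 for Ankrd37 minus Bhlhe40, 0.60 for Ndrg1 minus Cited2 and 0.079 for Bhlhe40 minus Cited2. Taking out GC content as well gave 2.94, 0.59 and 0.057 for these pairs. Of 38 named genes of the pathway lists and nearest profiles, 8 (Ep300, Epas1, Max, Ndrg2, Ndrg4, Nr1d1, Sgk1 and Tfap2b) changed their call in at least 1 alternative, and 0 changed direction. Gapdh is not among these 38. Max, Sgk1 and Ndrg4 passed when p-values were adjusted over the listed genes alone. With the replicate number as a block 5257 genes were called and Ankrd37 had an adjusted p of 0.000604. Under the block Sgk1 (adjusted p = 0.00761) and Max (adjusted p = 0.0484) passed in limma's test. Deviations of same-numbered libraries correlated at 0.02 to 0.12, and each library correlated best with its own number. For number 1 the margin was slight, at 0.0206 against 0.0198 for MK-8617 replicate 2 with IRI replicate 1. The labels do not say that numbers pair the samples. Only Ankrd37 with IRI alone, at 9 to 25 reads per library, is limited by depth among the members.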
